A study of Saccharomyces cerevisiae with 9 samples.

Results

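The genes described here encode the machinery by which budding yeast respires: 44 nuclear genes for cytochrome c, for complexes II, III and IV of the mitochondrial respiratory chain, for the ATP synthase, for the NADH dehydrogenases that feed the chain, and for the later steps of the tricarboxylic acid (TCA) cycle, together with HAP4, the regulatory subunit of the activator that drives many of them. They were chosen by gene symbol, and each was represented by its probe set with the highest mean over the arrays. All 44 symbols were matched, of 5449 Saccharomyces cerevisiae genes measured. They comprise 2 cytochrome c genes, 4 genes of complex II, 9 of complex III, 8 of complex IV, 12 of the ATP synthase, 2 NADH dehydrogenases, 6 later TCA genes and HAP4.

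The study set wild-type BY4742 against BY4742 with LOS1 deleted, LOS1 encoding the nuclear exporter of tRNA. RNA was measured on Affymetrix Yeast_2 arrays, 1 array per culture, from 6 wild-type cultures (cultures 1 to 6) and 3 deletion cultures (cultures 7 to 9). BY4742 is a haploid of mating type alpha that lacks working HIS3, LEU2, LYS2 and URA3 genes, and the titles of the deletion arrays also name URA3, so the groups differ at both LOS1 and URA3. Per the extraction protocol, both groups grew in YEPD, a rich glucose medium, at 30 °C and 225 rpm, were collected at an OD600 of 0.5, and were lysed in a buffer with cycloheximide. A separate growth protocol describes plate cultures, and the extraction protocol was taken here as the one for the arrays. The titles of the wild-type arrays also give 2% glucose, whereas those of the deletion arrays name no glucose level. Per the same protocol 3 isolates of each strain were used and the wild-type cultures were duplicates, without saying which share an isolate. The p-values below therefore measure the spread between cultures, part of which may lie between cultures of the same isolate.

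When glucose is plentiful, budding yeast ferments it to ethanol and keeps many respiratory genes below their full level. When glucose runs out, the Hap2-Hap3-Hap5 complex, bound to promoters and carrying Hap4 as its activating subunit, raises the genes of the chain, the ATP synthase and the TCA cycle together, so their mRNA levels are often read as a measure of respiratory state. S. cerevisiae has no proton-pumping complex I: single-protein NADH dehydrogenases pass electrons to ubiquinone, complex III and complex IV pass them on to oxygen by way of cytochrome c, and the ATP synthase uses the resulting proton gradient.

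The labels were checked first. LOS1 stood at 11.11 ± 0.16 (SD, n = 6) log2 units in the wild type and at 3.65, 2.76 and 3.18 in the deletion cultures, under the background level of 4.67, which is the 95th percentile of probe sets not matched to S. cerevisiae. URA3 was under that level in all 6 wild-type cultures and at 10.88 ± 0.04 (SD, n = 3) in the deletion cultures. Between 98.0% and 98.2% of genes were above background on each array. The mean over 4 genes that mark alpha cells lay between 12.8 and 13.0 in the wild type and between 12.7 and 12.9 in the deletion, and that over 5 a-cell genes between 6.83 and 6.97 and between 6.93 and 7.04.

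None of the 44 respiratory genes passed the test in either direction. Limma's test across all 5449 genes, with Benjamini-Hochberg adjustment and a threshold of 0.05, called 5.52% of all genes, 2.62% higher and 2.90% lower in the deletion, and 0 of the 44. At an unadjusted p under 0.05, 3 of the 44 passed (ATP2, NDI1 and CYT1, all at lower values in the deletion), against 22.0% of all genes. For no respiratory gene did the 3 deletion cultures lie wholly above or wholly below the 6 wild-type cultures, whereas 12.6% of all genes separated in that way. The values are averages over the cells of a culture, so a change in each cell and a change in the share of cells that express a gene cannot be told apart.

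The differences, deletion minus wild type on the log2 scale, ran from -0.33 for NDI1 to 0.25 for COX7. They were positive for 24 genes and negative for 20, and their median was 0.03, against -0.01 over all genes. For 31 of the 44 the difference was under 0.1 in size. The median size was 0.0703, against 0.0735 over all genes and 0.0628 over the 3288 genes with a mean level above 10. For 43 of the 44, the gene's own 95% interval excluded a change of more than 1.5-fold in either direction, and for 38 it excluded more than 1.3-fold, limits chosen after seeing the data. Over all 5449 genes the same held for 5174 and 4655. The exception among the 44 at 1.5-fold was NDI1, whose interval reached -0.62. All 44 genes were above background on all 9 arrays, and each had a single probe set.

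**Figure D1:**
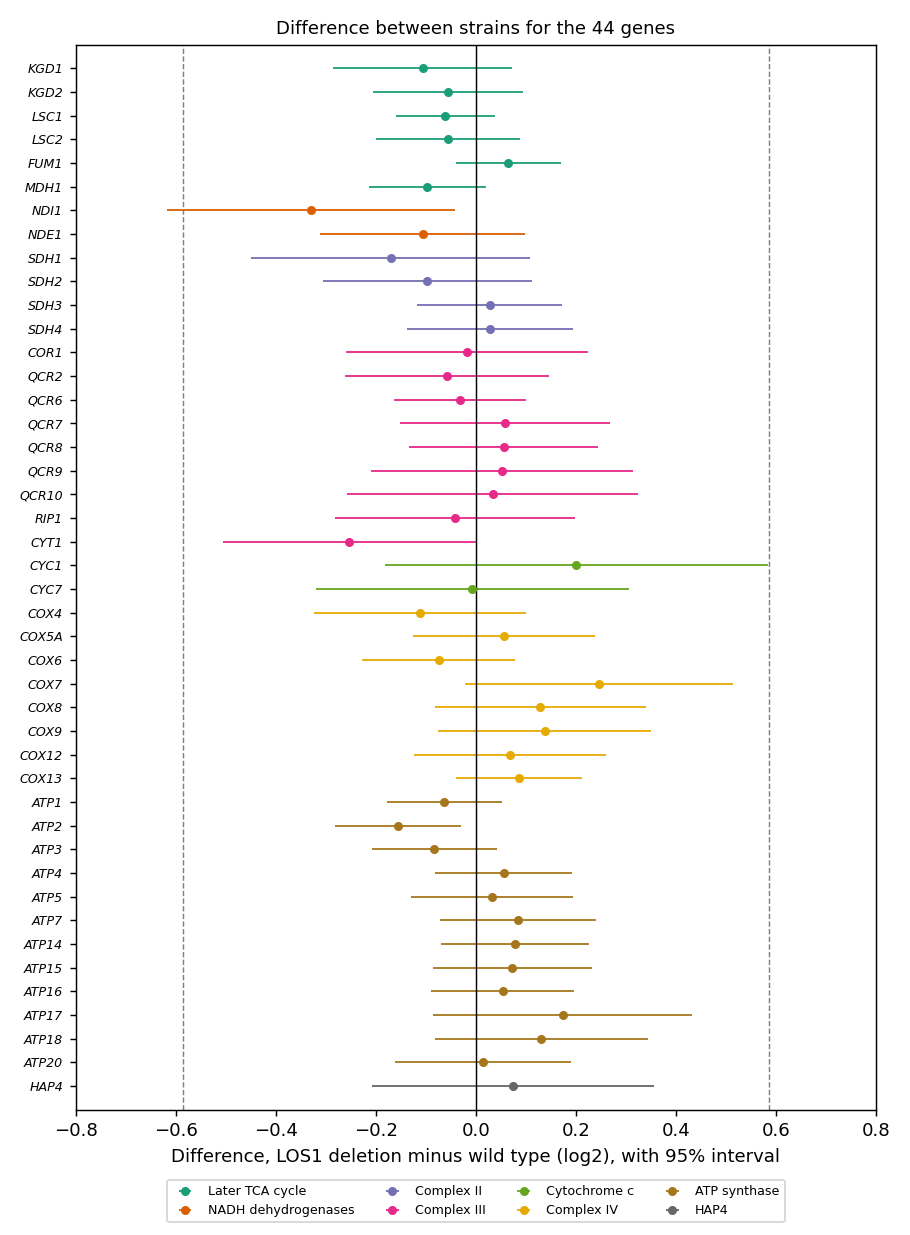
Differences in log2 expression, deletion minus wild type, for the 44 genes grouped by complex; points are differences of the means (6 wild-type and 3 deletion cultures), bars are 95% intervals of the limma fit. The points run from -0.33 (NDI1) to 0.25 (COX7) and no gene passed the test.

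The later TCA genes had the smallest spread between cultures of these groups, with a median pooled SD of 0.0840. KGD1 and KGD2 encode the first and second enzymes of 2-oxoglutarate dehydrogenase, LSC1 and LSC2 the subunits of succinyl-CoA ligase, FUM1 fumarase and MDH1 the mitochondrial malate dehydrogenase. Their differences lay between -0.11 (KGD1) and 0.06 (FUM1), 5 of the 6 were negative, and the median was -0.06. MDH1 had the smallest p of this group: the wild-type cultures ran from 11.69 to 11.89 with a median of 11.78, and the deletion cultures read 11.75, 11.63 and 11.66. Culture 7 lay inside the wild-type range and cultures 8 and 9 below it, and the difference was -0.10 ± 0.05 (SE, limma adjusted p = 0.314). FUM1, the 1 positive member, read 12.34, 12.18 and 12.24 in the deletion against 12.14 to 12.26 in the wild type, with cultures 8 and 9 inside that range and culture 7 above it. For all 6 genes the 95% interval lay within 1.3-fold.

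The NADH dehydrogenases both had negative differences. NDI1, the inner-membrane enzyme that oxidises NADH of the matrix, ranged from 9.36 to 9.94 with a median of 9.46 in the wild type and read 9.38, 9.26 and 9.09 in the deletion. The wild-type cultures were uneven: cultures 1 and 4 read 9.94 and 9.79 and the other 4 lay between 9.36 and 9.48, so that deletion culture 7 fell inside the wild-type range and cultures 8 and 9 below it. The difference was -0.33 ± 0.13 (SE), the largest in size of the 44, with an adjusted p of 0.172. NDE1, the enzyme that faces the intermembrane space and oxidises cytosolic NADH, differed by -0.11 ± 0.09 (SE, adjusted p = 0.538). Without cultures 1 and 4, a choice made after seeing the data, the difference of NDI1 was -0.18 with an adjusted p of 0.269.

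Complex II, succinate dehydrogenase, belongs to both the TCA cycle and the chain. SDH1, its flavoprotein, ranged from 9.39 to 10.04 with a median of 9.73 in the wild type and read 9.70, 9.58 and 9.46 in the deletion, all inside the wild-type range, a difference of -0.17 ± 0.13 (SE, adjusted p = 0.463). SDH2, the iron-sulfur subunit, differed by -0.10. The membrane anchors SDH3 and SDH4 each differed by 0.03, with intervals of -0.12 to 0.17 and -0.14 to 0.19.

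Complex III passes electrons from ubiquinol to cytochrome c. CYT1, which encodes its cytochrome c1, ranged from 10.33 to 10.86 with a median of 10.55 in the wild type, and the deletion cultures read 10.46, 10.37 and 10.08. Cultures 7 and 8 lay within the wild-type range and culture 9 below it. The difference was -0.25 ± 0.11 (SE, adjusted p = 0.226), and without deletion culture 9 it was -0.14 (adjusted p = 0.572). The other 8 genes of the complex lay between -0.06 and 0.06. They encode the core proteins (COR1 at -0.02 and QCR2 at -0.06), the Rieske iron-sulfur protein (RIP1 at -0.04) and small subunits (QCR6 at -0.03, QCR7 and QCR8 at 0.06, QCR9 at 0.05 and QCR10 at 0.03). Adjusted p-values over the 9 genes ran from 0.226 to 0.942.

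Cytochrome c, the small carrier between complexes III and IV, is encoded by CYC1 and by CYC7, the form made mainly at low oxygen. CYC1 ranged from 10.67 to 11.38 with a median of 11.11 in the wild type and read 11.40, 11.37 and 10.96 in the deletion. Its wild-type range of 0.71 log2 units held deletion cultures 8 and 9, and culture 7 lay just above it. The difference was 0.20 ± 0.17 (SE), with a 95% interval of -0.18 to 0.58 and an adjusted p of 0.534. CYC7 differed by -0.01, with an interval of -0.32 to 0.31.

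Complex IV, cytochrome c oxidase, reduces oxygen to water, and 6 of its 8 nuclear genes had positive differences, with a median of 0.08. COX7 had the largest. Its wild-type cultures ran from 11.25 to 11.81 with a median of 11.39, and the deletion cultures read 11.66, 11.86 and 11.51. Wild-type culture 5, at 11.81, lay above deletion cultures 7 and 9, and the other 5 wild-type cultures lay below all 3 deletion cultures. The difference was 0.25 ± 0.12 (SE, adjusted p = 0.268). Without culture 5 it was 0.32 with an adjusted p of 0.0446, and this was the 1 setting of 21 in which any of the 44 genes was called. COX9 (0.14), COX8 (0.13), COX13 (0.09), COX12 (0.07) and COX5A (0.06), other subunits around the catalytic core, were positive as well, and COX4 (-0.11) and COX6 (-0.07) negative, with adjusted p-values from 0.405 to 0.734.

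Of the 12 ATP synthase genes, 9 had positive and 3 negative differences, and none passed the test. The 3 negative values belonged to subunits of the catalytic head and its central shaft, ATP1 (alpha, -0.06), ATP2 (beta, -0.16) and ATP3 (gamma, -0.08). These are also the 3 longest of the 12 genes by the coding length described below, at 1638, 1536 and 936 bases. Whether the signs go with length or with place in the enzyme was not tested. The other 9 genes, which encode the small shaft subunits ATP15 (epsilon) and ATP16 (delta), the peripheral stalk with ATP4, ATP5, ATP7 and ATP14, and the membrane part with ATP17, ATP18 and ATP20, lay between 0.01 and 0.17. ATP2 had the smallest p of the 44 genes. It ranged from 12.96 to 13.18 with a median of 13.09 in the wild type and read 13.01, 12.91 and 12.88 in the deletion. Culture 7 lay within the wild-type range and cultures 8 and 9 below it, and the difference was -0.16 ± 0.06 (SE, adjusted p = 0.149). ATP17, at the other end, ranged from 11.21 to 11.87 in the wild type with a median of 11.54 and read 11.67, 11.79 and 11.67 in the deletion, all within the wild-type range, a difference of 0.17 ± 0.12 (SE, adjusted p = 0.419).

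HAP4 showed no difference that passed the test. Its wild-type cultures ranged from 11.06 to 11.60 with a median of 11.47, and the deletion cultures read 11.51, 11.39 and 11.45, all inside that range. The difference was 0.07 ± 0.13 (SE, adjusted p = 0.778), with a 95% interval of -0.21 to 0.36. Within the wild type, cultures 1, 3 and 4 read 11.60, 11.56 and 11.57, culture 6 read 11.38, and cultures 2 and 5 read 11.09 and 11.06, so the wild-type spread was 0.25 (SD, n = 6) against 0.06 (SD, n = 3) in the deletion.

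The respiratory genes varied more between cultures of the same strain than most genes did. Their median pooled SD was 0.133, against 0.0879 over all genes and 0.0781 over genes with a mean level above 10, and 36 of the 44 were above the median gene. The cultures did not contribute evenly. Wild-type culture 5 was the highest wild-type culture for 26 of the 44 genes, against 21.2% of all genes, and culture 3 was the lowest for 22, against 16.2%. Among the deletion cultures, culture 8 was the highest for 27 and culture 9 for 0, against 30.6% and 38.0% of all genes, and culture 9 was the lowest for 35, against 21.2%. The genes share these arrays, so the counts describe the 9 cultures and are not 44 separate observations.

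**Figure D2:**
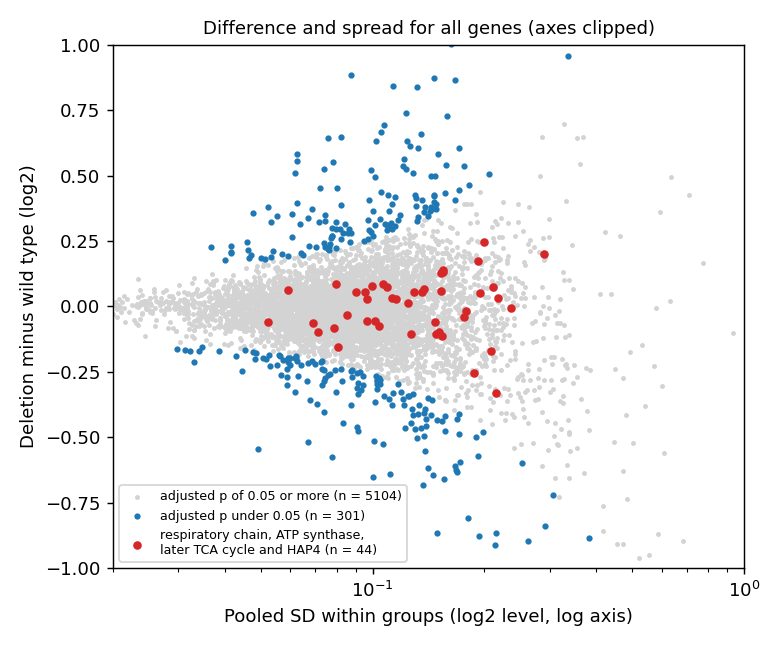
Difference, deletion minus wild type (log2), against the pooled SD between cultures of a strain (log2 units, log axis), 1 point per gene: 301 genes called by limma in blue, the 44 respiratory genes in red and the others in grey; 63 genes lie outside the axes. The red points lie among the grey ones, between -0.33 and 0.25, with a median pooled SD of 0.133 against 0.0879 over all genes.

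Expressed as the median deviation from the wild-type mean, the 44 genes read 0.08, -0.03, -0.13, 0.03, 0.15 and -0.08 in cultures 1 to 6 and 0.03, 0.11 and -0.10 in cultures 7 to 9. The span from culture 3 to culture 5, both wild type, was thus wider than the span over the deletion cultures, and the deletion values lay inside it. The 8 genes of complex IV likewise were lowest in culture 3 (-0.18) and highest in cultures 5 (0.21) and 8 (0.19), but stood at -0.02 in culture 9. The NADH dehydrogenases read otherwise, at 0.28 and 0.19 in cultures 1 and 4, between -0.20 and -0.05 in cultures 2, 3, 5 and 6, and at -0.12, -0.24 and -0.29 in the deletion. HAP4 was lowest in culture 5, where complex IV was highest. Once the trend with coding length described below was removed, HAP4 was instead lowest in culture 2 (-0.30), with culture 5 at -0.26.

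**Figure D3:**
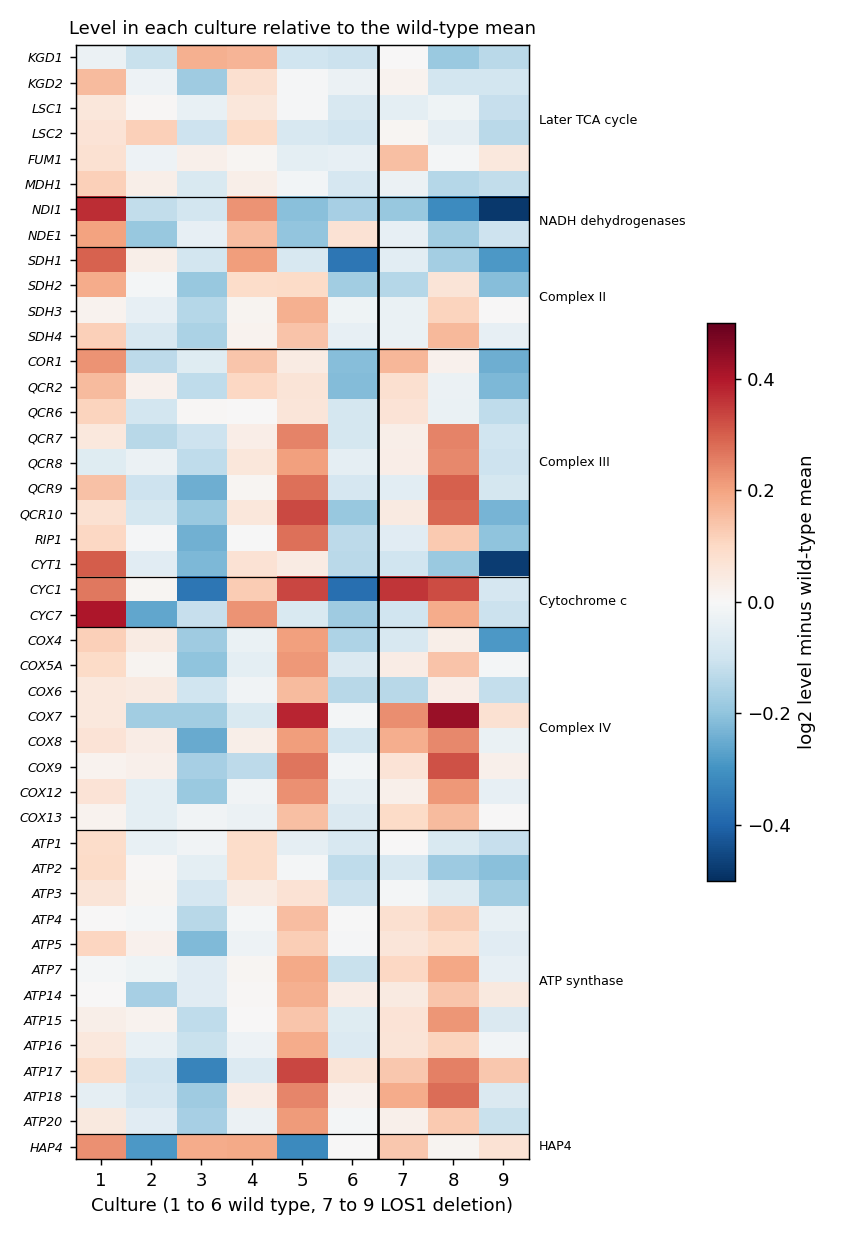
Deviation of each of the 44 genes from its wild-type mean (log2, colour) in each of the 9 cultures, genes grouped by complex. Culture 5 is high and culture 3 low among the wild-type cultures for most subunits of complexes III and IV and the ATP synthase, and culture 8 is high and culture 9 low among the deletion cultures.

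The high values in cultures 5 and 8 went with coding length. This is the annotated RefSeq length of the gene in assembly R64, without untranslated regions but with any introns. Of the 44 genes, 24 have a coding length of up to 600 bases, most of them small subunits of complexes III and IV and the ATP synthase. For 22 of these 24 culture 5 was the highest wild-type culture, and for 22 culture 8 was the highest deletion culture. The 884 other genes of that length also stood high in both cultures, with median deviations of 0.11 in culture 5 and 0.09 in culture 8, while the short respiratory genes stood at 0.21 in each. In cultures 6 and 9 they did not go together: the other short genes read 0.04 and 0.05 there and the short respiratory genes -0.07 and -0.06. The 2098 other genes longer than 1500 bases read -0.08 and -0.09 in cultures 5 and 8. In deletion cultures 7 to 9 the other short genes read 0.02, 0.09 and 0.05, and these long ones -0.02, -0.09 and -0.04. Outside the 44, short genes thus stood above the wild-type mean and long genes below it in each deletion culture. When the trend with length was removed from each array, a step chosen after seeing the data, the median pooled SD of the 44 fell from 0.133 to 0.0986 and that of all genes from 0.0879 to 0.0742. The medians of the 44 then read 0.07, -0.01, -0.10, 0.07, 0.06 and -0.09 in cultures 1 to 6 and 0.02, 0.05 and -0.11 in cultures 7 to 9. For the 44, cultures 1 and 4 thus stood slightly above culture 5, and cultures 3, 6 and 9 were still the lowest. The 24 short respiratory genes alone still read highest in culture 5 among the wild-type cultures (0.10) and in culture 8 among the deletion cultures (0.11). None of the 44 was called after this step: COX7 stood at 0.20 (adjusted p = 0.231), ATP2 at -0.12 (adjusted p = 0.157), NDI1 at -0.30 (adjusted p = 0.168) and CYT1 at -0.25 (adjusted p = 0.195). What made short genes move together in these cultures was not tested.

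**Figure D4:**
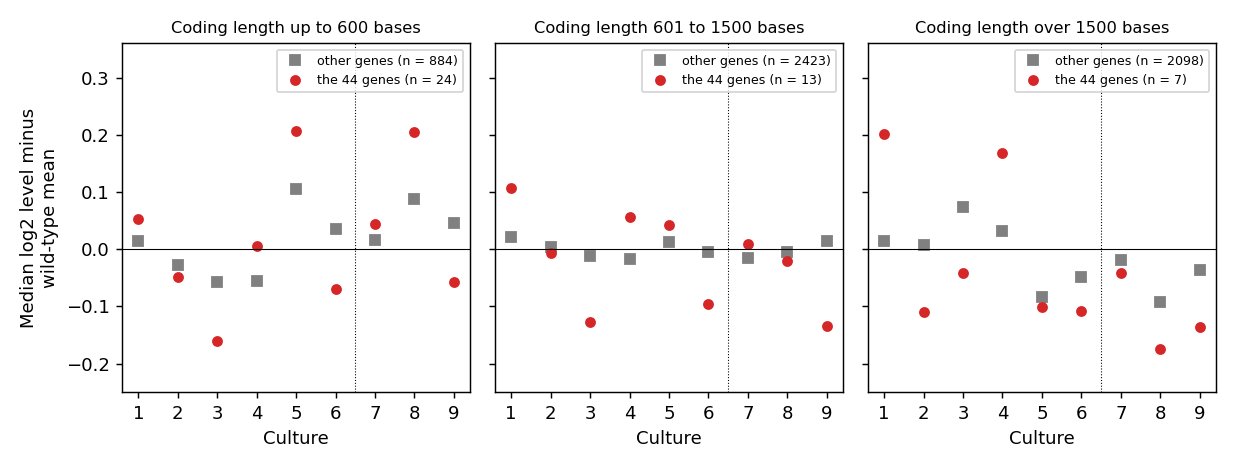
Median deviation from the wild-type mean (log2) in each culture, wild type left and deletion right of the dotted line, for the respiratory genes (red) and all other genes (grey) in 3 classes of coding length. In cultures 5 and 8 the shortest class lies above the wild-type mean, at 0.21 for the 24 respiratory genes and at 0.11 and 0.09 for the 884 others.

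The genes around the respiratory core were read from 13 further lists, on which 130 of 140 listed genes were measured and 12 were called, 7 higher and 5 lower, against 2.62% higher and 2.90% lower over all genes. These lists were chosen with earlier results of these data known. The 7 mitochondrially encoded genes listed, among them COX1 and COB, were not measured here. Among the partners of Hap4 and the oxygen regulators, 1 of 6 genes rose: ROX1, the repressor of hypoxic genes, lay between 9.91 and 10.32 in the wild type and at 10.57, 10.44 and 10.35 in the deletion, without overlap, a difference of 0.39 ± 0.08 (SE, adjusted p = 0.0264). The call on ROX1 was lost when wild-type culture 1 or 2 or deletion culture 7 or 8 was left out, with adjusted p up to 0.0996 over all alternatives. Chosen after their values were seen, 3 genes known to be repressed by Rox1 did not pass the test: CYC7 and COX5B, the low-oxygen form of COX5A, differed by -0.01 and -0.02, and HEM13 of heme synthesis by 0.16 (adjusted p = 0.147).

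Of 66 genes for assembly of the complexes, 4 (6.06%) were called, close to the 5.52% of all genes. Of 18 genes for the assembly of complexes II and III, 2 fell: BCS1, which inserts the Rieske protein (-0.18, adjusted p = 0.0414), and CBP6, needed to make cytochrome b (-0.25, adjusted p = 0.0439). Of 33 for complex IV, 1 rose: COA6, which takes part in delivering copper, by 0.26 (adjusted p = 0.0493). Of 15 for the ATP synthase, 1 fell: NCA3, linked to the expression of mitochondrial ATP synthase genes (-0.34, adjusted p = 0.0216). In ubiquinone synthesis 1 of 13 rose, the ferredoxin YAH1, by 0.28 (adjusted p = 0.0253), and in heme synthesis 1 of 8 fell, HEM2, the porphobilinogen synthase (-0.17, adjusted p = 0.0339). Each of these 6 calls was lost when single arrays were left out: any 1 of the 9 but cultures 4 and 5 for BCS1, any but 3 and 5 for CBP6, any but 1 and 5 for HEM2, any but 5 for COA6, cultures 4, 7, 8 and 9 for YAH1, and cultures 8 and 9 for NCA3. Another scaling of the arrays also ended the call for BCS1, CBP6, COA6, HEM2 and NCA3. Adjusted p in limma's test reached at most 0.206 over the 19 alternative fits. None was called among 9 other structural subunits, where the alternative external NADH dehydrogenase NDE2 had the smallest p (-0.15, limma adjusted p = 0.197). None was called among the 2 genes for attaching heme to cytochrome c, where CYC3 differed by -0.09 (limma adjusted p = 0.429). At an unadjusted p under 0.05 limma passed 1 of these 9 and 0 of these 2, against 22.0% of all genes.

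Several enzymes of the steps before 2-oxoglutarate passed the test. Of 6 genes of the early TCA cycle, 3 rose, against 2.62% of all genes, on a list chosen with earlier results of these data known. IDH1 rose by 0.31 (limma adjusted p = 0.0314) and IDH2 by 0.27 (limma adjusted p = 0.0217). They encode the subunits of the NAD-dependent isocitrate dehydrogenase. IDP1, the mitochondrial NADP-dependent enzyme, rose by 0.19 (limma adjusted p = 0.0363). Of the 6 later genes none was called, and the difference between the 2 sets of genes was not tested. The call on IDH1 was lost without any 1 of cultures 1, 2, 4, 6, 7 and 9, that on IDH2 without any 1 of the deletion cultures, and that on IDP1 without any 1 of cultures 1, 2, 3, 4, 6, 8 and 9. Adjusted p in limma's test reached 0.130, 0.0994 and 0.157 over their 19 alternative fits. Of 12 genes for pyruvate entry, the pyruvate dehydrogenase complex and LPD1, 1 rose: PKP2, a kinase that phosphorylates and so restrains pyruvate dehydrogenase, lay between 8.54 and 8.79 in the wild type and at 9.01, 9.27 and 9.20 in the deletion, a difference of 0.44 ± 0.07 (SE, adjusted p = 0.00541). Its call held in all 19 alternative fits. LPD1, the dehydrogenase subunit shared with 2-oxoglutarate dehydrogenase and chosen after its value was seen, differed by -0.04 (adjusted p = 0.758).

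Some respiratory functions are served by a pair of isoenzymes, and the balance within 3 pairs was compared as the log2 ratio within each array. In the first pair the cytosolic malate dehydrogenase MDH2, an enzyme of gluconeogenesis, moved against the mitochondrial MDH1: the log2 ratio was -0.09 ± 0.38 (SD, n = 6) in the wild type and -1.93 ± 0.15 (SD, n = 3) in the deletion, a change of -1.84 (exact 2-sided permutation test, p = 0.0119, the smallest the 84 assignments allow, and 0.0357 adjusted over the 3 pairs). MDH2, the 1 gene called of 5 on the list of malate and fumarate isoenzymes, fell (-1.94, limma adjusted p = 4.01e-04), whereas MDH1 differed by -0.10. The change in the ratio thus restates the fall of MDH2 and is no separate support for it. The genes came from lists chosen with earlier results known, and the permutations took the duplicate wild-type cultures as separate. For CYC7 over CYC1 the change was -0.21 (exact permutation p = 0.298, adjusted 0.446) and for COX5B over COX5A it was -0.08 (exact permutation p = 0.488, adjusted 0.488). Neither of the pairs that exchange a low-oxygen for a normal-oxygen form passed the test.

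**Figure D5:**
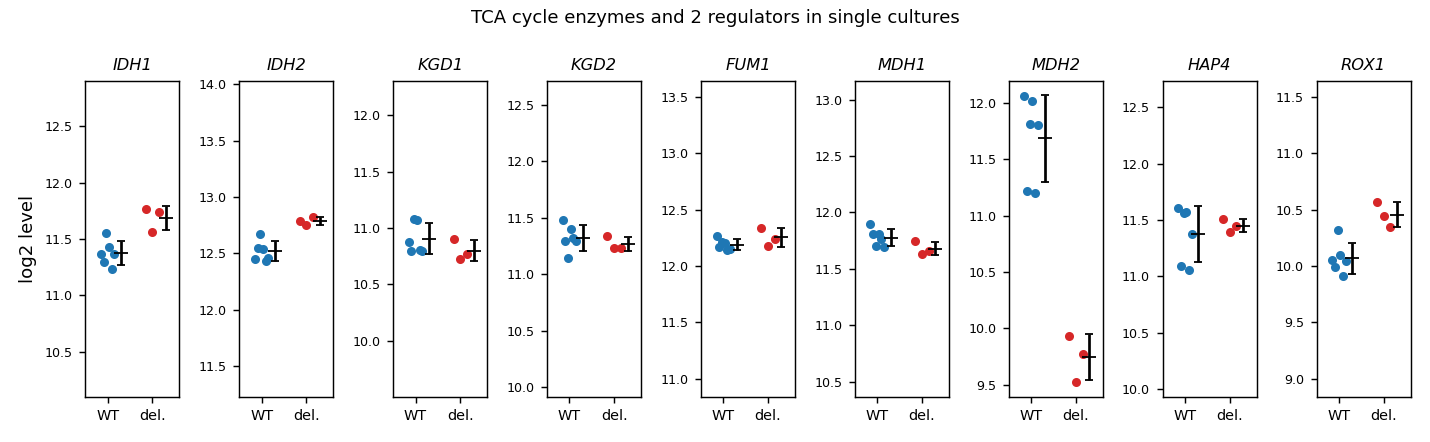
Log2 level in each culture (points) of the TCA cycle genes IDH1, IDH2, KGD1, KGD2, FUM1 and MDH1, the cytosolic MDH2, and the regulators HAP4 and ROX1, in 6 wild-type (blue) and 3 deletion (red) cultures; bars are the mean and SD, and each panel spans 2.8 log2 units. MDH2 differs by -1.94 and MDH1 by -0.10.

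Glucose-repressed genes outside respiration were read beside the respiratory ones, since both groups of genes answer to glucose. Their list was chosen with earlier results of these data known, so its counts are no independent support for a fall. MDH2 is also on the list of malate and fumarate isoenzymes and was counted there as well. Of 16 measured, 5 fell and 0 rose, against 2.90% and 2.62% of all genes, with a median difference of -0.29: MDH2 as above, ADR1 (-1.32, adjusted p = 1.28e-04), HXK1 (-1.53, adjusted p = 0.0277), MTH1 (-1.34, adjusted p = 0.0292) and HXT4 (-1.27, adjusted p = 0.0446). The other genes of the 16 were not called. Among them ADH2, ACS1 and JEN1 differed by -0.03, -0.03 and -0.04, PCK1 by 0.005 and SUC2 by 0.13, but HXT7 by -1.47. The probe set of HXT7 is of a kind that can detect several related transcripts, and HXT6 was not measured separately. Of the 16 differences, 14 were negative and 2 positive. ADR1 is an activator of glucose-repressed genes, HXK1 a hexokinase, MTH1 a regulator of glucose transporter genes and HXT4 a transporter. The calls on MDH2 and ADR1 held in all 19 alternative fits. That on HXK1 was lost without culture 8 or 9, and that on MTH1 without any 1 of cultures 3, 7, 8 and 9. That on HXT4 was lost without any 1 of cultures 1, 3, 4, 6, 7, 8 and 9. All 3 were lost with an intensity trend and robust prior. Over the 19 fits limma's adjusted p reached 0.124 for HXK1, 0.114 for MTH1 and 0.168 for HXT4. Without both wild-type cultures 1 and 4 the differences were smaller, at -1.13 for HXK1, -0.99 for MTH1 and -0.90 for HXT4, with adjusted p of 0.00665, 0.0102 and 0.0304. By culture the medians of the 16 genes were 0.24, -0.17, -0.05, 0.21, -0.19 and -0.06 in the wild type and -0.24, -0.35 and -0.29 in the deletion. Cultures 1 and 4 were thus the high wild-type cultures, as they were for NDI1, which read 9.94 and 9.79 there, and for SDH1, which read 10.04 and 9.96. The enzymes that hand electrons from lactate and glycerol 3-phosphate to the chain had negative differences. Limma called 0 of 3, and 3 of 3 had an unadjusted p under 0.05, against 22.0% of all genes. CYB2, the lactate dehydrogenase that reduces cytochrome c, had the smallest p of them at -0.61 ± 0.20 (SE, adjusted p = 0.110), and its wild-type values of 7.76 and 7.58 in cultures 1 and 4 were again the highest. What made cultures 1 and 4 high, and whether it bears on the difference between the strains, was not tested.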

How the data were processed

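The deposited table gives 1 log2 value for each probe set and array, which the authors obtained by RMA (per the submitters' processing notes, which name no version). RMA equalises the distributions of the arrays, so differences are relative to the other transcripts. Of 10928 probe sets, 7244 named 1 gene, 1 several and 3683 none; 5498 matched RefSeq's S. cerevisiae R64 table, which left 5449 genes after the brightest probe set was kept for 47 genes with several. The other 1746 named probe sets gave the background level. No depth applies to arrays, and their number limits the precision.

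Differences were tested with limma 3.58.1 (lmFit and eBayes, 2-sided, Benjamini-Hochberg over 5449 genes, threshold 0.05) in R 4.3.3, and the fit was tested on simulated data. Intervals are per gene and unadjusted. Exact permutation tests ran over the 84 ways to pick 3 of 9 arrays. Named genes are all 44 members and, of each other list, the called genes (if over 5, the 3 with the smallest p in each direction) or else the 1 with the smallest p; exceptions are stated. Members and lists were chosen with earlier results of these data known.

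Alternatives were the array medians set equal, repeated quantile normalization, other treatment of probe sets and dim genes, an intensity trend with robust prior, array weights (statmod 1.5.0), stricter thresholds, each array left out, and wild-type arrays averaged in all 15 pairings. Leaving out cultures 1 and 4, or 5 and 8, and removing the length trend (lowess, span 0.3) were added after seeing the data.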

Additional observations from a re-analysis of the deposited data

How the results depend on the processing

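The count of respiratory genes called stayed at 0 in 20 of the 21 alternative settings and in all 15 pairings of the wild-type arrays. The exception was leaving out wild-type culture 5, which gave 1 gene higher (COX7). Over the settings that left out 1 array the count ran from 0 to 1 higher and was 0 lower throughout. The stricter thresholds were applied to the same fit, so they could not raise a count of 0. Each of the 44 genes had a single probe set, so averaging over probe sets left their values unchanged. The median difference over the 44 genes was 0.03, with a SD of 0.10 between wild-type arrays, and it was negative in 5 settings: -0.04 without deletion culture 8, -0.01 without wild-type culture 3, -0.01 without cultures 5 and 8, -0.01 with the length trend removed and -0.004 with array weights. Over single arrays left out it ran from -0.04 to 0.07. The calls over all genes, 143 higher and 158 lower, depended more on the setting: 69 and 57 without deletion culture 8, 70 and 78 without culture 9, 89 and 81 without culture 7, 91 and 92 without wild-type culture 4, 216 and 262 without culture 5, 73 and 73 without cultures 1 and 4, 80 and 72 without cultures 5 and 8, from 66 and 63 to 184 and 263 over the pairings, 235 and 263 with array weights, 226 and 208 with the length trend removed, 58 and 52 at an adjusted p under 0.01, and 24 and 33 at 1.5-fold or more. The causes were not tested. Repeated quantile normalization gave 175 and 126.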

Other observations

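MPC3, the subunit of the mitochondrial pyruvate carrier used in respiring cells, was chosen here after its values were seen. It read 11.74 and 11.62 in wild-type cultures 1 and 4 and between 9.68 and 10.71 in the other 4, and 9.44, 8.81 and 8.99 in the deletion, so the groups did not overlap. Its difference of -1.60 ± 0.44 (SE) had an adjusted p of 0.0641 in limma's test and is not called. MPC1, the constant subunit, differed by 0.13 (adjusted p = 0.426), and MPC2, the subunit that MPC3 replaces in respiring cells, by -0.01 (adjusted p = 0.928).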
